A study of Oncorhynchus mykiss with 6 samples.

Results

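The let-7 family of miRNAs was compared between livers of rainbow trout (Oncorhynchus mykiss) after 4 days without food and control livers. Its members were taken by name, as every row of the deposited miRNA table called let-7 or miR-98, whatever its letter, arm, length or fish prefix. The rule found 71 of 1427 rows, all called let-7, and 0 rows called miR-98. The fasted group was 3 libraries from livers of juvenile wild-type trout deprived of food for 4 days, numbered 3, 4 and 5 by the labels. The control group was 3 libraries from livers of juvenile wild-type trout, numbered 3, 4 and 6, whose feeding the labels do not describe. In both groups the strain is given as Walbaum, and no gene was altered in either. The labels do not state whether a library stands for 1 fish, a pool or a repeat, so p-values here describe variation among libraries, which may be partly technical.

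The let-7 miRNAs are among the oldest known in animals and were first found as a timing gene in the worm Caenorhabditis elegans. A miRNA guides an Argonaute protein to messenger RNAs that pair with its seed, the bases 2 to 8 counted from its 5′ end, and family members with the same seed share most of their predicted targets. In vertebrates let-7 is high in differentiated tissues and low in embryonic cells, where the RNA-binding protein Lin28 blocks its maturation. In mice let-7 represses genes of insulin signalling, and raised let-7 impairs glucose tolerance. Each let-7 hairpin is cut into a 5p strand, which is usually kept, and a 3p strand, which is usually degraded.

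The sequences of the row with the most reads of each letter are shown first, because they set out what the letters share and where they differ; capitals mark the seed.
dre-let-7a: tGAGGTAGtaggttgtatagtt
fru-let-7e: tGAGGTAGtagattgaatagtt
hhi-let-7j: tGAGGTAGttgtttgtacagtt
dre-let-7g: tGAGGTAGtagtttgtatagtt
fru-let-7h: tGAGGTAGtaagttgtgttgtt
dre-let-7b: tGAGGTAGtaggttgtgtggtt
dre-let-7i: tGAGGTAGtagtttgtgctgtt
dre-let-7d-5p: tGAGGTAGttggttgtatggtt
All 8 share the same seed, and they differed only between positions 10 and 19. Counted from 1 at the 5′ end, and with the base of dre-let-7a given first, dre-let-7g differed by G12T alone. dre-let-7b differed by A17G and A19G, dre-let-7d-5p by A10T and A19G, and fru-let-7e by G12A and T16A. hhi-let-7j carried A10T, G12T and T18C, and fru-let-7h carried G11A, A17G and A19T. dre-let-7i was the farthest from dre-let-7a, with G12T, A17G, T18C and A19T.

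The 71 rows divided into 35 of the 5p strand, 31 named 3p or p3, called the 3p side here, and 5 named p5. They carried 10 letters and the prefixes of 9 fish, with 27 rows named after zebrafish (dre), 15 after Atlantic salmon (ssa) and 12 after pufferfish (fru). The 5p rows held 99.2% of the family's counts, and 26 of the 35 carried the seed shown above at bases 2 to 8, while 2 held it nowhere, each through a substitution inside it. Extra bases at the 5′ end moved the seed in 8 rows, the p5 row dre-let-7c-1-p5_2ss2GT20AG among them. These 8 rows came to 37.5 counts over the 6 libraries. Among the rows outside the family, 0 had that seed at bases 2 to 8. Rows of 22 nt held 99.8% of the family's counts.

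Of the 71 members, 24 had enough counts to be tested, 13 of the 5p strand and 11 of the 3p side, and these held 99.95% of the family's counts. The other 47 were traces: the most abundant of them, ssa-let-7j-5p_1ss12GA, had 66.8 counts in all 6 libraries, 33 rows had fewer than 10, and 19 had at most 1. The suffix of a name records how the row differs from the named miRNA, with R and L for bases added or lost at the right and left end and ss for a substitution; in all 33 names with a substitution the stated base stood at the stated position. let-7c and let-7f, which are letters found in many vertebrates, had by name 5 rows with 35.1 counts and 5 rows with 63.2 counts; dre-let-7a_1ss12GA, with 343 counts, also holds a let-7f sequence. Counts of close relatives are uncertain one by one: 51.2% of the family's nonzero values were not whole numbers (tolerance 1e-06), against 32.3% in the other known rows, and the rule by which the authors divided reads is not stated.

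The libraries differed in depth and make-up. The table's counts came to between 737686 and 1432592 in the fasted libraries and between 982844 and 4203708 in the control libraries, so that 3 counts corresponded to between 2.08 and 2.48 CPM (counts scaled to a common total after TMM) in fasted and between 0.809 and 3.66 CPM in control liver. In fasted replicate 3 the table took up 15.1% of the mappable reads, against 34.9 to 61.0% elsewhere, and rows named mir-7641 held 1.78% of its counts, against at most 0.326% elsewhere. The hepatocyte miRNA miR-122 held between 35.7 and 42.6% of the counts in fasted and between 35.1 and 40.1% in control libraries. The hepatocyte list (miR-122, miR-192 and miR-194, 24 rows) held 37.5 to 44.2% of the counts in fasted and 36.6 to 41.8% in control libraries. The red blood cell list (miR-451 and miR-144, 9 rows) held 0.113 to 0.893% in fasted and 0.172 to 0.358% in control libraries, and the leucocyte list (8 rows) 0.0706 to 0.276% in fasted and 0.0805 to 0.177% in control libraries. The muscle list (5 rows) reached 0.0167% in fasted and 0.0045% in control libraries, and the list for stroma and vessels (21 rows) held 4.403 to 5.656% in fasted and 4.53 to 5.87% in control libraries. The part of these differences in the let-7 values was not tested.

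The summed let-7 level was lower in fasted than in control liver with TMM scaling, which corrects library sizes for composition, and higher with library totals or relative to miR-122. With TMM the family summed to 49153, 68722 and 75929 CPM in fasted replicates 3, 4 and 5, and to 76444, 76008 and 88269 CPM in control replicates 3, 4 and 6. The 3 fasted libraries lay below the 3 control libraries, with fasted replicate 5 close to control replicates 3 and 4.
The mean was 64601 ± 13856 CPM in fasted and 80240.5 ± 6956 CPM in control liver (SD, n = 3 each). The means of the log2 levels differed by -0.33, fasted less control (exact two-sided permutation test, p = 0.1). This is the smallest p that 3 libraries against 3 can give. The difference was -0.30 with DESeq2 size factors and -0.29 with the authors' normalized values, both with overlapping groups (exact permutation test, p = 0.3 each). The direction turned with library totals as the only scaling, to 0.22, and when the family was set against miR-122 of the same library, to 0.19. With TMM, miR-122 itself averaged 324059 CPM in fasted and 458512 CPM in control liver, with overlapping groups. Without fasted replicate 3 the TMM difference of the let-7 family was -0.15.

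As a share of the unscaled table counts, the family held 8.07, 6.17 and 9.18% in fasted replicates 3, 4 and 5 and 6.75, 6.34 and 6.73% in control replicates 3, 4 and 6. The control libraries stayed close together, while the fasted libraries lay on both sides of them. The means were 7.81% ± 1.52 in fasted and 6.60% ± 0.228 in control liver (SD, n = 3; exact permutation test, p = 0.4). As a share of mappable reads the direction turned, with 2.46% ± 1.08 in fasted and 3.57% ± 0.532 in control liver (SD, n = 3; exact permutation test, p = 0.2). The 95% Wilson interval of the widest case ran from 8.005 to 8.129% in fasted replicate 3. It covers counting error only. Set against miR-122, there were 18.9, 16.5 and 25.7 let-7 counts per 100 in the fasted and 19.2, 15.8 and 17.8 in the control libraries, with overlapping groups. In bulk liver, fewer cells of a type and less RNA per cell cannot be told apart.

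**Figure D1:**
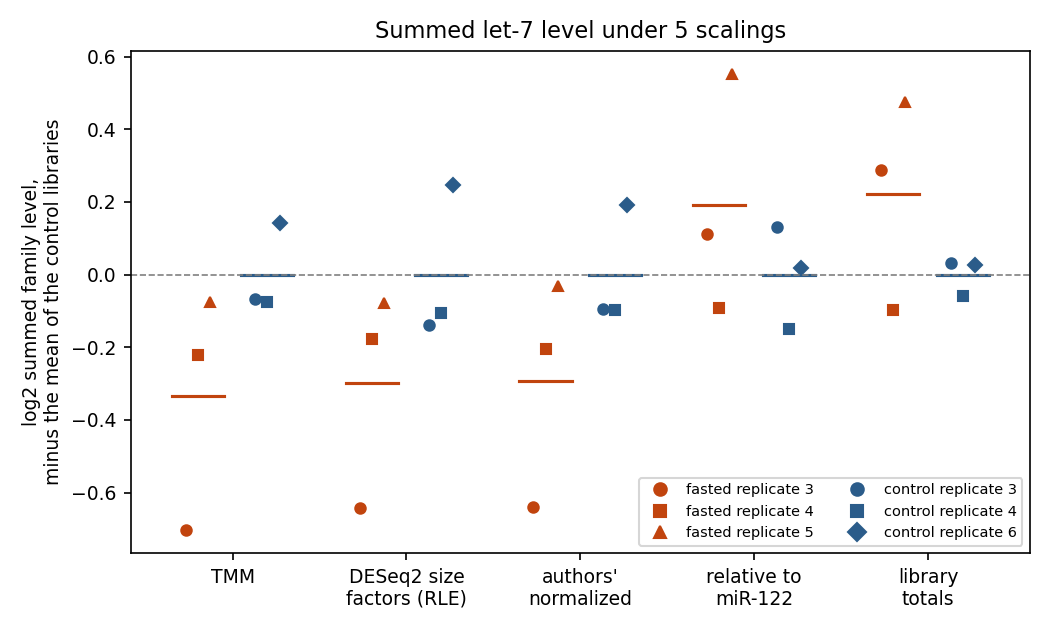
Summed let-7 level of each library on the log2 scale, less the mean of the control libraries, under 5 ways of scaling; points are libraries and bars are group means. The fasted mean lies 0.33 below the control mean with TMM and 0.22 above it with library totals, and fasted replicate 3 moves most.

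Row by row, the test called no let-7 member in fasted against control liver. Of the 24 tested members, 0 passed an adjusted p of 0.05 in edgeR's quasi-likelihood test with Benjamini-Hochberg adjustment over all 309 tested rows, where 0% of all rows did. At an unadjusted p under 0.05 there was 1 member, lower in fasted liver, against 8.41% of all tested rows and 3.56% counting only those lower in fasted liver. DESeq2 also called 0 members, against 1.29% of all rows, and had 1 under an unadjusted p of 0.05, against 9.06%. The lowest adjusted p of a member was 0.557. With the rows of each miRNA name added up before the test, 0 of 18 let-7 names were called, 0 had an unadjusted p under 0.05 and the lowest adjusted p was 0.570; over all 265 summed names 0% were called and 7.55% had an unadjusted p under 0.05. No let-7 name had groups without overlap, against 16.2% of all summed names, 8.3% with all fasted libraries higher and 7.92% with all lower. The 95% interval of a member's log2 fold change reached a median of 0.97 to either side. A smaller fitted change of a member with such an interval could not be told apart from 0. The interval is not adjusted for the 309 rows, so larger changes could also go uncalled, as did the -1.35 of dre-let-7a_1ss12GA.

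let-7a was by far the most abundant letter. Its groups overlapped with TMM scaling. As a share of the table the fasted libraries were all higher, as in 24.6% of all tested rows. The row dre-let-7a had 31870, 48666 and 42781 CPM in fasted replicates 3, 4 and 5, and 42649, 41438 and 52007 CPM in control replicates 3, 4 and 6. On this scale the groups overlapped, with the lowest value in fasted replicate 3 and the highest in control replicate 6. As a share of the table's counts the row held 5.23, 4.37 and 5.17% in fasted replicates 3, 4 and 5, and 3.76, 3.46 and 3.96% in control replicates 3, 4 and 6, without overlap. Its log2 fold change was -0.14 (SE 0.29, edgeR adjusted p = 0.911), or 0.064 without fasted replicate 3. With library totals it was 0.40, below the median of all tested rows, 0.59.

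let-7e, let-7j and let-7g, the next 3 letters, had lower mean TMM CPM in fasted than in control liver, and the lower values came from fasted replicates 3 and 4. fru-let-7e had 5582, 8267 and 12622 CPM in the fasted libraries and 12600, 14000 and 16558 CPM in the control libraries. Only fasted replicate 5 reached the control range, at its lower end. On the log2 scale it was lower by 0.71 in fasted liver (-0.71, SE 0.36; adjusted p = 0.606 in edgeR), or -0.15 with library totals. hhi-let-7j had 4036, 3736 and 7978 CPM in fasted and 7401, 8810 and 8666 CPM in control libraries, which is -0.66 on the log2 scale (SE 0.37; adjusted p = 0.606 in edgeR; -0.062 with library totals). dre-let-7g had 3292, 4687 and 7184 CPM in fasted and 7035, 6750 and 7935 CPM in control libraries, with -0.52 (SE 0.36, edgeR adjusted p = 0.618; 0.033 with library totals). In TMM CPM, in each of these 3 letters, fasted replicates 3 and 4 lay below all control libraries and fasted replicate 5 among them. With library totals the median of all tested rows was 0.59, and the rows of these 3 letters lay below it.

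The less abundant letters let-7h, let-7b and let-7d had close group means in TMM CPM. fru-let-7h averaged 1338 ± 424 CPM in fasted and 1346 ± 158 CPM in control liver, with a log2 fold change of -0.01 (SE 0.34). dre-let-7b averaged 1350 ± 327 CPM in fasted and 1203 ± 428 CPM in control liver, with 0.17 (SE 0.39), and its lowest value, 709 CPM, was in control replicate 6. dre-let-7d-5p averaged 198.8 ± 61.3 CPM in fasted and 202 ± 63.7 CPM in control liver, with -0.03 (SE 0.39). The edgeR adjusted p-values of these 3 rows lay between 0.914 and 0.991, and all 3 had overlapping groups. With library totals the log2 fold changes were 0.59 for let-7h, 0.73 for let-7b and 0.59 for let-7d, with the median of all tested rows at 0.59. The sign of each TMM value turned under at least 1 other setting.

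let-7i was the letter that varied most between libraries of the same group. dre-let-7i had 866, 255 and 815 CPM in fasted replicates 3, 4 and 5, and 2855, 1093 and 426 CPM in control replicates 3, 4 and 6. The groups overlapped, with fasted replicate 4 the lowest of the 6 and control replicate 3 alone at the top. The log2 fold change of -1.18 had the widest error of the tested members (SE 0.72, edgeR adjusted p = 0.606), and without control replicate 3 it was -0.25.

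**Figure D2:**
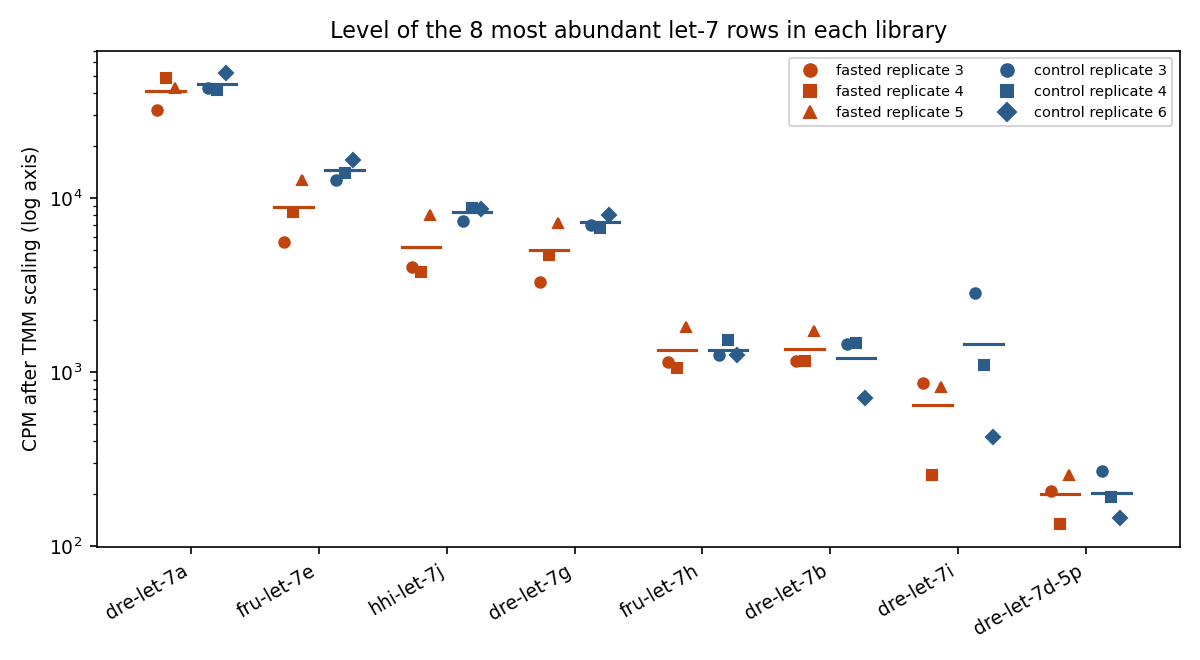
Level of the most abundant row of each of 8 let-7 letters in CPM after TMM scaling, on a log axis; points are libraries, fasted left of control for each row, and bars are group means. dre-let-7a lies between 31870 and 52007 CPM, above all other rows, and dre-let-7i spreads from 255 to 2855 CPM.

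The 1 member with an unadjusted p under 0.05 was a rare row that differs from dre-let-7a by G12A and from fru-let-7e by A16T. It is printed with the related rows because its name and its sequence point to different letters; capitals mark the seed.
dre-let-7a_1ss12GA: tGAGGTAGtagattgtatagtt
dre-let-7f_R-1: tGAGGTAGtagattgtatagt
The first holds all 21 bases of the second and 1 more T. The suffix R-1 marks the second as 1 base shorter than the let-7f it is named after. With its named substitution undone, the trace row ipu-let-7f_1ss7AG has the same 22 bases as the first. A row named as a let-7a variant thus holds a full-length let-7f sequence. Whether its reads came from a let-7f gene was not tested.
dre-let-7a_1ss12GA had 8.26, 15.5 and 16.0 CPM in fasted replicates 3, 4 and 5, and 20.5, 17.1 and 62.6 CPM in control replicates 3, 4 and 6. All 3 fasted libraries lay below the control libraries, and control replicate 6 lay far above the others. With TMM CPM it was the only member of the 24 without overlap, against 17.5% of all tested rows, 8.74% with all fasted libraries lower and 8.74% with all higher. As a share of the table its groups overlapped, and 4 other members (dre-let-7a, ssa-let-7h-3p, ssa-let-7a-4-3p and dre-let-7a-5-p3) had all fasted libraries higher. On that scale 25.9% of all tested rows had no overlap, 24.6% with all fasted libraries higher and 1.29% with all lower. The fitted change was -1.35 on the log2 scale (SE 0.59, unadjusted p = 0.0491, edgeR adjusted p = 0.557), and without control replicate 6 it was -0.50. Per 1000 counts of fru-let-7e it had 1.48, 1.85 and 1.28 counts in the fasted libraries and 1.63, 1.25 and 3.78 in the control libraries, with overlapping groups. Per 1000 counts of dre-let-7a it had 0.259, 0.314 and 0.379 counts in the fasted and 0.480, 0.422 and 1.204 in the control libraries, and here all fasted libraries were lower.

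**Figure D3:**
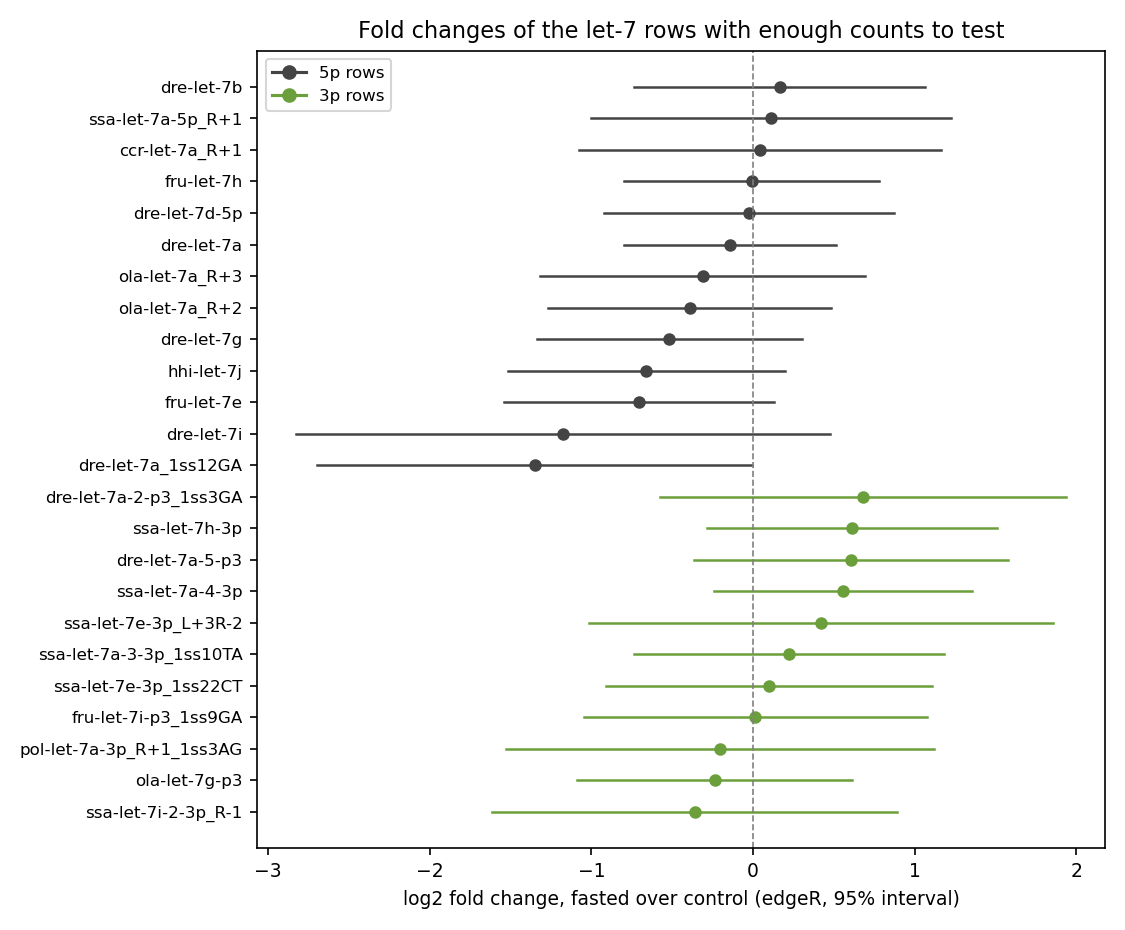
log2 fold change of fasted over control liver with its 95% interval from edgeR for the 24 let-7 rows tested, 13 of the 5p strand and 11 of the 3p side. Every interval but that of dre-let-7a_1ss12GA, which ends just below 0, spans 0.

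Shares within the family do not depend on the scaling between libraries. By this measure the order of the letters was let-7a, let-7e, let-7j, let-7g, let-7h, let-7b, let-7i and let-7d, with mean shares over the 6 libraries of 60.8, 15.8, 9.22, 8.37, 2.10, 1.83, 1.53 and 0.294%. let-7a stood above let-7e, let-7e above let-7j, let-7g above let-7h and let-7i above let-7d in 6 of 6 libraries. let-7j stood above let-7g, let-7h above let-7b and let-7b above let-7i in 5 of 6, and these neighbours lay within each other's spread.

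The make-up of the family in fasted replicates 3 and 4 was shifted towards let-7a. let-7a made up 65.9, 71.4 and 56.9% of the family's counts in fasted replicates 3, 4 and 5, and 56.5, 55.1 and 59.3% in control replicates 3, 4 and 6. Fasted replicate 5 lay inside the control range and the other 2 fasted libraries above it. The means were 64.7% ± 7.36 in fasted and 57.0% ± 2.13 in control liver (SD, n = 3), and an exact permutation test gave p = 0.2 (adjusted p = 0.48 over 8 letters).
let-7e showed the opposite pattern, with 11.7, 12.1 and 16.8% in the fasted and 16.7, 18.6 and 18.9% in the control libraries (exact permutation test, p = 0.2, adjusted p = 0.48). There were 5.62, 5.90 and 3.38 let-7a counts for each let-7e count in fasted replicates 3, 4 and 5, and 3.39, 2.96 and 3.14 in control replicates 3, 4 and 6. let-7g held 6.73, 6.86 and 9.48% of the family in fasted and 9.23, 8.91 and 9.02% in control libraries, so that the controls lay close together and the fasted libraries on both sides of them (p = 0.4 in an exact permutation test, adjusted p = 0.533). let-7j held 8.23, 5.45 and 10.5% in fasted and 9.70, 11.6 and 9.83% in control libraries (p = 0.3 in an exact permutation test, adjusted p = 0.48). The remaining 4 letters had exact permutation p-values of 0.3 to 0.6. Without fasted replicate 5 the let-7a difference of 7.79 percentage points was 11.7, and without fasted replicate 4 it was 4.44.

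let-7i again had the widest range within the family. Its share ran from 0.419 to 3.79%, a 9.05-fold range over the 6 libraries, against 1.30-fold for let-7a and at most 2.94-fold for any other letter. It held 1.85, 0.419 and 1.101% in fasted replicates 3, 4 and 5 and 3.79, 1.49 and 0.505% in control replicates 3, 4 and 6. Replicate 3 of each group had the highest share in its group, while the numbers are not said by the labels to mark a shared tank, day or fish. The difference between the groups was -0.81 percentage points with all libraries and 0.13 without control replicate 3.

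**Figure D4:**
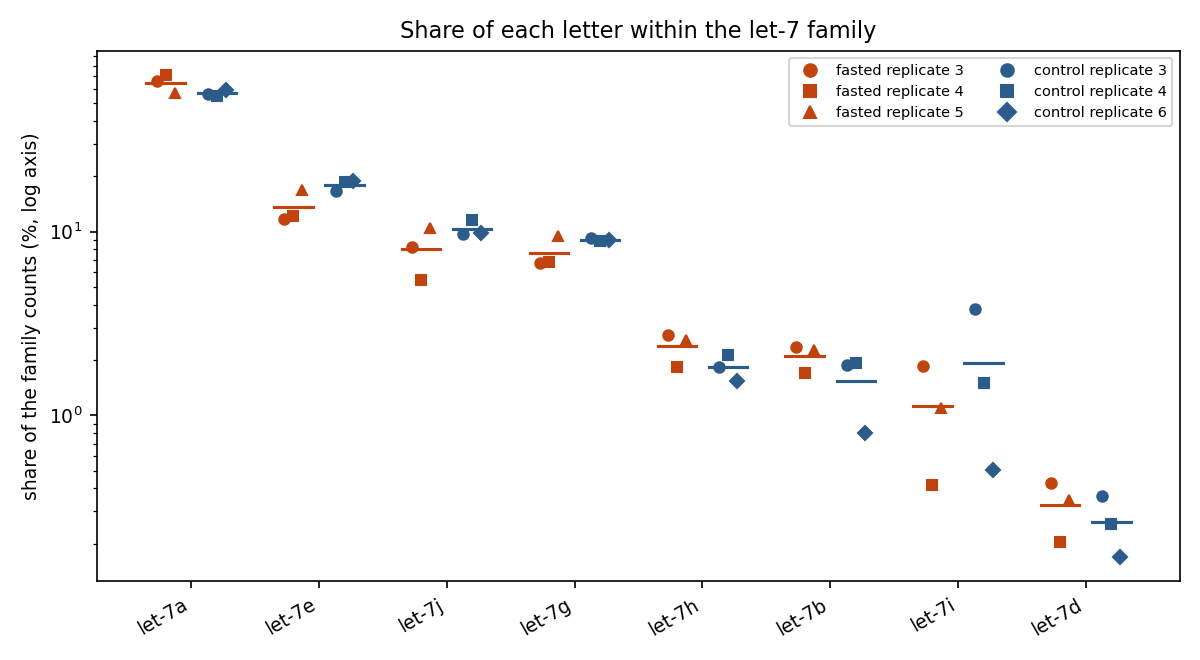
Percent of the family's counts held by each of 8 letters, on a log axis; points are libraries, fasted left of control, and bars are group means. let-7a reaches 65.9 and 71.4% in fasted replicates 3 and 4, and let-7i spreads from 0.419 to 3.79%.

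The 3p strands of let-7 were rare in all libraries. The 3p row with the highest mean CPM of each of 5 letters is shown because, unlike the 5p rows above, these do not share a seed; capitals again mark bases 2 to 8.
ssa-let-7h-3p: cTATACAActtactgccttcct
ssa-let-7a-4-3p: cTATACAGtctattgccttcct
ssa-let-7e-3p_1ss22CT: cTATACAAtctactgtctttct
ola-let-7g-p3: cTATACAGtctactgtctttct
fru-let-7i-p3_1ss9GA: cTGCGCAAactactgccttgct
Among these 5 rows let-7h and let-7e had 1 seed in common, let-7a and let-7g another, and let-7i a seed of its own. Within let-7a the 3p rows differed too: pol-let-7a-3p_R+1_1ss3AG, with slightly more counts than ssa-let-7a-4-3p (0.156 against 0.154% of the family) but a lower mean CPM, had another seed.
The 3p rows made up 1.81, 0.949 and 0.762% of the family's counts in fasted replicates 3, 4 and 5, and 1.02, 0.740 and 0.441% in control replicates 3, 4 and 6. The groups overlapped, and fasted replicate 3 was the highest. The means were 1.17% ± 0.560 in fasted and 0.735% ± 0.291 in control liver (SD, n = 3; exact permutation test, p = 0.4), and without fasted replicate 3 the difference of 0.44 percentage points was 0.12.

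With TMM scaling most 3p rows had positive and most 5p rows negative fold changes, 0 of them called; with library totals both medians were above 0. Of the 11 tested 3p rows 8 had a log2 fold change above 0, with a median of 0.22, and of the 13 tested 5p rows 3 were above 0, with a median of -0.31. Over all 309 tested rows 155 were above 0 and the median was 0.01. Outside the family, the 85 known rows named 3p had a median of 0.09 and the 86 named 5p a median of 0.04. These sets leave out the rows outside the family whose names give no arm. Such rows were counted as 5p within let-7 and make up most of its 5p rows, so the 5p medians cover unlike kinds of rows. With library totals as the only scaling, which moved the median of all rows to 0.59, all 11 let-7 3p rows and 9 of the 13 5p rows were above 0, and the medians were 0.85 and 0.23.
Among single 3p rows, ssa-let-7h-3p had 205, 202 and 116 CPM in the fasted and 156, 96.3 and 88.3 CPM in the control libraries, or 0.61 on the log2 scale (SE 0.39; adjusted p = 0.606 in edgeR). ssa-let-7a-4-3p had 183, 148 and 115 CPM in fasted and 121, 105 and 77.7 CPM in control libraries, with 0.55 (SE 0.35, edgeR adjusted p = 0.606). In both rows fasted replicate 5 lay within the control range. ssa-let-7e-3p_1ss22CT had 0.10 (SE 0.44), fru-let-7i-p3_1ss9GA 0.02 (SE 0.46) and ola-let-7g-p3 -0.24 (SE 0.37), all with overlapping groups and edgeR adjusted p-values of 0.900 to 0.991. The other 6 tested 3p rows ran from -0.36 for ssa-let-7i-2-3p_R-1 to 0.68 for dre-let-7a-2-p3_1ss3GA, with overlapping groups.

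With letters taken from the row names, the letters differed in how much 3p strand accompanied the 5p strand. let-7h had 182, 193.8 and 63.5 counts of 3p per 1000 of 5p in fasted replicates 3, 4 and 5, and 127, 64.6 and 71.2 in control replicates 3, 4 and 6. For let-7i these were 49.6, 128 and 25.5 in the fasted and 15.2, 36.8 and 47.8 in the control libraries. let-7e had 32.7, 6.83 and 12.8 in fasted and 11.3, 8.71 and 5.29 in control libraries. In these 3 letters the fasted libraries spread more widely than the controls and overlapped them. let-7a stayed between 3.11 and 13.7 and let-7g between 2.27 and 5.81 in all 6 libraries. let-7b had between 0.711 and 2.50, while let-7d had at most 0.973 and let-7j at most 0.146. let-7h held more 3p per 5p than let-7a, let-7e or let-7g in each of the 6 libraries. The letter of a 3p row was not checked by its sequence, so all these ratios rest on the names. For example, the trace row ola-let-7b-1-p3_1ss10CT differs from ssa-let-7h-3p only in its last base.

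**Figure D5:**
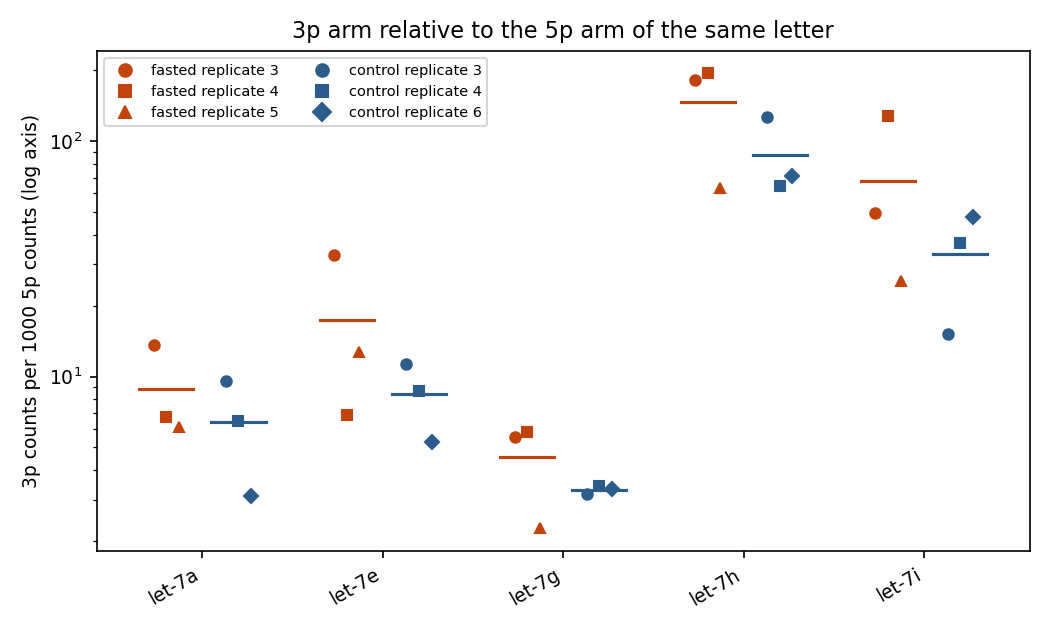
Counts of 3p rows per 1000 counts of 5p rows of the same letter, on a log axis; points are libraries, fasted left of control, and bars are group means. let-7h lies above let-7a, let-7e and let-7g in all 6 libraries, and fasted replicate 3 is the highest point of let-7a and let-7e.

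Longer forms of let-7a were rare in all libraries. The 2 most abundant are shown because they differ from dre-let-7a only by added T at the 3′ end; capitals mark the seed.
ola-let-7a_R+2: tGAGGTAGtaggttgtatagtttt
ola-let-7a_R+3: tGAGGTAGtaggttgtatagttttt
Added U residues, read as T, are the mark that terminal uridylyl transferases leave on RNA 3′ ends; whether these bases are copied from the hairpin gene was not tested.
Together these rows came to 0.197, 0.127 and 0.190% of the dre-let-7a counts in fasted replicates 3, 4 and 5, and to 0.228, 0.283 and 0.107% in control replicates 3, 4 and 6. The fasted libraries lay inside the control range. Their log2 fold changes were -0.39 (SE 0.38) for ola-let-7a_R+2 and -0.31 (SE 0.44) for ola-let-7a_R+3, with edgeR adjusted p-values of 0.724 and 0.877. Rows longer by a single G, ssa-let-7a-5p_R+1, or a single C, ccr-let-7a_R+1, averaged 12.9 and 10.1 CPM in fasted and 11.7 and 9.98 CPM in control liver. The count-weighted mean length of the 5p rows was 22.0032 nt in fasted and 22.0031 nt in control liver (exact permutation test, p = 0.9).

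In vertebrate genomes some let-7 genes lie in clusters with miR-125 and with miR-99 or miR-100, so the family was also set against the 27 rows with those names. There were 83.9, 23.1 and 56.3 let-7 counts per 100 counts of these partners in fasted replicates 3, 4 and 5, and 25.7, 28.8 and 23.5 in control replicates 3, 4 and 6. The control libraries lay close together, fasted replicate 4 just below them and the other 2 fasted libraries well above. The log2 ratio was higher by 0.88 in fasted liver (exact permutation test, p = 0.4), by 0.47 without fasted replicate 3 and by 1.41 without fasted replicate 4.
The partners summed to 58597, 297986 and 134965 CPM in the fasted and 297281, 263736 and 375123 CPM in the control libraries, and fasted replicates 3 and 5 were the lowest. Against the miR-125 rows alone the log2 ratio differed by 0.11 (exact permutation test, p = 0.9), but the fasted libraries spread widely. Per 100 miR-125 counts there were 1166, 553 and 2178 let-7 counts in fasted replicates 3, 4 and 5. Control replicates 3, 4 and 6 had 1182, 1053 and 903. Against miR-99 and miR-100 the log2 ratio differed by 0.91 (p = 0.4 in an exact permutation test). The ratio was chosen with earlier results of these data, miR-100 values among them, already known, and gives them no independent support.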

How the data were processed

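The authors deposited 2 tables. The read summary holds whole-number counts of reads per library at each step of adaptor removal, per the file headers. The miRNA table holds expected counts per small RNA sequence, deposited with the prefix raw. Beside them it holds the authors' normalized signal (each nonzero count over a size parameter in the file header). Where a row had no counts in a library, this signal is a small constant. The submitters' processing notes list Bowtie 1.1.1; the sources used here do not name the counting program or the genome build. Libraries were grouped by their titles.

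After rounding the expected counts, all rows went into edgeR 4.0.16 under R 4.3.3, by its quasi-likelihood test after TMM scaling and filterByExpr (minimum count 10, total 15) without covariates, with Benjamini-Hochberg adjustment over 309 rows; a row was called at an adjusted p under 0.05. CPM uses TMM-scaled library sizes, and shares use the unrounded counts. SE and 95% intervals come from edgeR's moderated spread. For summed names, the prefix, the suffix and a final 5p were removed. Rows named 3p or p3 were taken as the 3p side, and let-7 rows with no arm as 5p. Values of 1 number per library were set against each other with two-sided exact permutation tests (scipy 1.17.1). Only the edgeR fit was first tested on simulated data. DESeq2 1.42.0, other scalings, no filter, the replicate number as a block and leaving out each library were alternatives.

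Members given with values are the most abundant tested row of each letter and arm, any with an unadjusted p under 0.05 or with groups that do not overlap, and the longer let-7a rows and the ends of the range of the other 3p rows, both chosen after their values were seen. The members, lists and tests were chosen with earlier results of these data known. No 2 libraries were duplicates: the most similar pair, control replicates 3 and 4, had a chi-square of 101 per degree of freedom. Sequences are from the deposited table.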

Additional observations from a re-analysis of the deposited data

How the results depend on the processing

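No let-7 row or summed let-7 name was called under any of the 11 alternatives each was fitted with. Over all features, 4 of 309 rows and 4 of 265 names were called with DESeq2, 11 of 1325 rows and 11 of 1032 names without the count filter, 1 of 323 rows and 1 of 274 names without control replicate 3, and 0 under the other 8. Of the 14 members described by rule, 6 kept their direction throughout and 8 turned at least once; the log2 fold changes of these 8 with TMM were at most 0.52 in size. With library totals, the log2 fold change was 0.40 for dre-let-7a, 0.59 for dre-let-7d-5p, 0.033 for dre-let-7g, 0.59 for fru-let-7h and 0.29 for ola-let-7g-p3, with the median of all rows at 0.59. With DESeq2 size factors in edgeR dre-let-7d-5p was at 0.021 and fru-let-7h at 0.020, and with DESeq2 both were at 0.020. Without the count filter fru-let-7i-p3_1ss9GA was at -0.068 and ssa-let-7e-3p_1ss22CT at -0.0090. With the replicate number as a block, dre-let-7b was at -0.32, fru-let-7i-p3_1ss9GA at -0.10 and ssa-let-7e-3p_1ss22CT at -0.38, 0 members were called, and 5 of the 24 were above 0 against 11 without the block. In that fit fasted replicate 5 and control replicate 6 each stood alone in a block, so the contrast rested on the libraries numbered 3 and 4. Libraries of equal number, 3 or 4, were not taken as pairs across the groups, because no label ties a number to a common origin. Deviations from the group means correlated at 0.42 between libraries numbered 3 and at -0.07 between those numbered 4. Between libraries with different numbers these correlations ran from -0.49 to 0.51. With 3 libraries per group the deviations within a group must cancel out, so these correlations cannot decide whether the libraries are paired. Leaving out 1 library gave ranges of -0.30 to 0.064 for dre-let-7a, -0.10 to 0.35 for dre-let-7b, -0.21 to 0.23 for dre-let-7d-5p, -0.16 to 0.15 for fru-let-7h, -0.27 to 0.34 for fru-let-7i-p3_1ss9GA, -0.53 to 0.059 for ola-let-7g-p3 and -0.079 to 0.41 for ssa-let-7e-3p_1ss22CT.

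The summed family level turned to 0.22 with library totals and to 0.19 relative to miR-122. As a share of mappable reads the family was lower by 1.11 percentage points in fasted liver (-1.11). The let-7i share difference ran from -1.52 to 0.13 percentage points with 1 library left out. The difference in mean length, under 0.001 nt, turned to -5.7e-04 nt for let-7a rows and to -4.4e-05 nt for tested rows, and ran from -5.0e-04 to 5.0e-04 nt with 1 library left out. Taking the letter of 5p rows from the sequence, an alternative chosen after seeing the data, moved 3 trace rows and turned no letter share. It left dre-let-7a_1ss12GA with let-7a, because every let-7f row carried a suffix and none served as the reference of that letter. Members without overlap numbered 4 with library totals, all higher in fasted liver, against 1 with TMM, which was lower. This alternative was also added after seeing the data. Over all tested rows, 25.9% had no overlap with library totals and 17.5% with TMM. For the family level, library totals differ from TMM only by the TMM factors. These were 1.64, 0.898 and 1.21 in fasted replicates 3, 4 and 5, and 0.882, 0.834 and 0.762 in control replicates 3, 4 and 6. What lies behind these factors and the other turns was not tested. With 3 libraries against 3 the exact tests cannot go below p = 0.1.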
